A study of Homo sapiens with 6 samples.

Results

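The glutathione transferases (GST), microsomal glutathione transferases (MGST), sulfotransferases (SULT) and the UGT2 family of UDP-glucuronosyltransferases are enzymes of phase II conjugation. Members were the genes whose symbols follow the naming pattern of these 4 families, with GST restricted to the alpha, kappa, mu, omega, pi, theta and zeta classes. The pattern took 45 of the 33707 genes in the deposited table: 21 GST genes, 5 of them with names ending in P (the convention for pseudogenes), 3 MGST genes, 12 SULT genes and 9 UGT2 genes (6 UGT2B and 3 UGT2A). RNA was sequenced from Huh7 cells, an established line from a human hepatocellular carcinoma, 2 days into treatment with miR-361-3p mimics (a synthetic microRNA) or with mimics-NC (the negative control mimic), 3 libraries per group. Per the labels, both groups were transfected with a lipid reagent and carry the genotype tag WT. The library of miR-361-3p mimics replicate 3 has Huh8 in its cell line tag although its title says Huh7, and the mimics-NC libraries have a treatment tag that names wild type cells although their titles name mimics-NC. All were kept with the group in their titles. The labels do not say whether replicates came from separate cultures. The p-values therefore reflect the spread among these libraries, which may be technical.

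Conjugation joins a small polar group to drugs, hormones, bile acids and reactive metabolites and so makes them easier to excrete. GSTs attach the tripeptide glutathione to electrophiles in the cytosol, and MGSTs do so in membranes. SULTs transfer a sulfonate group from the donor PAPS (3'-phosphoadenosine 5'-phosphosulfate). UGT2 enzymes, in the membrane of the endoplasmic reticulum, transfer glucuronic acid from UDP-glucuronic acid. Hepatocytes are a main site of all these reactions, with the alpha class prominent among their GSTs and UGT2B enzymes among their UGTs.

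A microRNA pairs with messenger RNAs mainly through its seed, bases 2 to 8. The mature sequence of miR-361-3p is shown because the mimic is named for it; RefSeq (GRCh38.p14) places it at chrX:85903641-85903663 on the minus strand, and capitals mark the seed. The sequence of the mimic itself is not given in the sources used here.
hsa-miR-361-3p: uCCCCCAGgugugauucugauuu
The 3′ UTRs of member transcripts were searched for the complement of the seed, CTGGGGG, and for TGGGGGA, the complement of bases 2 to 7 followed by A. A match was found in 5 of the 40 members with a coding transcript, which is 12.5%, and in 3 of the 17 members tested for a change, against 25.9% of the 9584 genes tested that have a 3′ UTR in the annotation. Member 3′ UTRs were shorter, with a median of 502 bases in the 40 members and 1312 bases in the 9584 genes. None of the 5 members that rose at the threshold used below held a match, and the median length of their 3′ UTRs was 215 bases. Of the 3 matches in tested members, those in GSTM3 and GSTM4 of the mu class are shown in capitals with the bases around them; none of the 3 genes passed the test.
GSTM3: tatcttgggcaTGGGGGAgcctttggccag
GSTM4: cctgagggattTGGGGGAggatggggattt
Matches were also found in GSTO2 and SULT2A1, whose levels were too low for the main test. A match is a description of these letters and was not read as a site that acts.

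The libraries held 35020139 to 52977132 assigned reads. Values were RPKM, read numbers scaled by the length listed for a gene and by the total assigned reads of its library. Comparisons of RPKM between genes, and the level of 1 RPKM used below, therefore depend on the listed lengths. All 9 hepatocyte markers looked up (ALB, APOA1, APOB, APOH, TF, SERPINA1, FGB, HNF4A and FOXA2) were at or over 1 RPKM and none passed the test; their summed level was 2978 to 3052 RPKM in the mimic libraries and 3113 to 3195 RPKM in the mimics-NC libraries. Of the markers of other cells, CD68 (1 of 4 immune) and PECAM1 (1 of 3 endothelial) were at or over 1 RPKM. So were 0 of 4 fibroblast or stellate and 0 of 4 cholangiocyte markers. None passed the test. No gene of the deposited table was at 0 in all 6 libraries, so a marker above 0 does not show that such cells were present. In RNA from whole cultures, fewer cells that express a gene and less RNA per cell cannot be told apart.

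Genes that averaged 1 RPKM or more across the 6 libraries were tested with limma on log2(RPKM + 0.5), and a gene is said to rise or fall when its Benjamini-Hochberg adjusted p over all 13158 genes tested was under 0.05. Of the 45 members, 17 reached that level: 9 GST, 3 MGST, 4 SULT and 1 UGT2. Of these 17, 5 rose and 0 fell with the mimics, against a background of 11.7% of all genes that rose, 9.85% that fell and 21.5% called in either direction. The 5 were GSTA1, GSTA3 and GSTA4 of the alpha class, GSTK1 and UGT2B4. At an unadjusted p under 0.05 there were 8 of the 17, or 47.1%, with 7 higher and 1 (SULT6B1) lower, beside 35.9% of all genes tested. The log2 fold change was positive in 14 of the 17, beside 53.0% of all genes tested. GSTO1 was among the 14 at 0.01 (-0.000337 after median-of-ratios scaling). The median over the 17 was 0.08, beside 0.01 over all genes tested. The 3 mimic libraries lay wholly apart from the 3 mimics-NC libraries in 7 of the 17, which is 41.4% over all genes tested. The counts over the 17 were read beside these shares and were given no test.

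**Figure D1:**
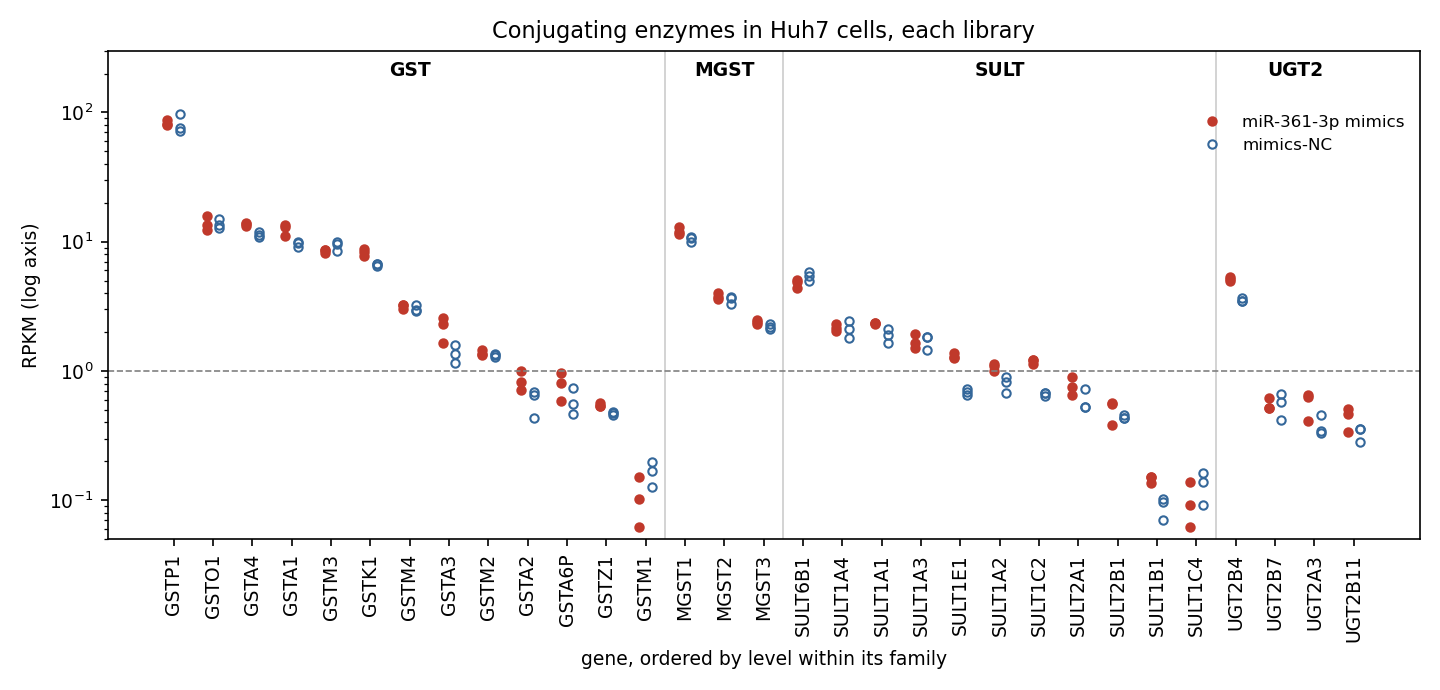
Level of each member with a mean of at least 0.1 RPKM in each library, on a log axis of RPKM, with miR-361-3p mimics as filled red points left of mimics-NC as open blue points and the dashed line at 1 RPKM. GSTP1 is the highest at 72.0 to 97.2 RPKM, and GSTO1 follows at 12.2 to 15.9 RPKM.

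Among the glutathione transferases, all 3 tested genes of the alpha class rose, by 1.20-fold to 1.60-fold in group means. GSTA1 is the main alpha-class enzyme of human liver and also binds bilirubin and other ligands. It had 12.9, 13.4 and 11.2 RPKM in the mimic libraries, against 9.74, 9.95 and 9.05 RPKM in the mimics-NC libraries. Every mimic library was above every mimics-NC library. The means were 12.5 ± 1.17 RPKM with the mimics and 9.58 ± 0.472 RPKM with mimics-NC (SD, n = 3 each), and the log2 fold change was 0.36 with a standard error of 0.07 (limma, adjusted p = 0.0143).

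GSTA4, which conjugates 4-hydroxynonenal, a product of lipid peroxidation, had 14.0, 13.7 and 13.2 RPKM in the mimic libraries and 12, 10.9 and 11.3 RPKM in the mimics-NC libraries. The groups did not overlap, and the gap between them was a little wider than the range of the mimics-NC libraries. Its log2 fold change was 0.25 with a standard error of 0.05 (limma, adjusted p = 0.0102).

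GSTA3, known as a steroid double-bond isomerase of steroid-producing tissues, had 2.31, 2.58 and 1.66 RPKM in the mimic libraries and 1.16, 1.36 and 1.58 RPKM in the mimics-NC libraries. The lowest mimic library, replicate 3, was only just above the highest mimics-NC library. It had the largest log2 fold change of the 17, 0.51, and also the largest standard error, 0.15 (limma, adjusted p = 0.0464), and it rested on 244 reads in the mimic libraries and 177 reads in the mimics-NC libraries. The call was lost in 5 of the 6 fits that each left out 1 library, with adjusted p of 0.0601 to 0.119, and kept without mimic replicate 3, with adjusted p of 0.0177.

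GSTA2, the near neighbour of GSTA1, averaged 0.844 ± 0.145 RPKM with the mimics and 0.59 ± 0.138 RPKM with mimics-NC (SD, n = 3 each) and was under the level for the main test. Its mimic libraries had 1.0, 0.714 and 0.818 RPKM and its mimics-NC libraries 0.65, 0.431 and 0.688 RPKM. The groups lay apart by a narrow margin, and GSTA2 did not pass the test at 0.1 RPKM or more described below (limma, adjusted p = 0.188). GSTA1 and GSTA2 are near copies, and 26.2% of the 50-base windows of GSTA1 transcripts also occur in other genes, most of them in GSTA2, so reads could be shared between the 2 genes. The corresponding share was 1.85% for GSTA3 and 0% for GSTA4. Only genes with names that begin with GST, MGST, SULT, UGT or SLX1 were compared.

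All 10 alpha-class names lie in 1 cluster on chromosome 6 (52687930 to 52995378, GRCh38), of which GSTA1 (52791664 to 52803910), GSTA3 (52896639 to 52909685) and GSTA4 (52977948 to 52995378), all on the minus strand, passed the level for testing. GSTA5 had 0 reads in the mimic libraries, which allows a level of up to 0.0259 RPKM over the 3 together, and 1 read in the mimics-NC libraries. Of the pseudogenes in the cluster, GSTA6P averaged 0.785 ± 0.186 RPKM with the mimics and 0.584 ± 0.135 RPKM with mimics-NC (SD, n = 3 each), with overlap between the groups. GSTA7P, GSTA8P, GSTA9P and GSTA10P had 2 to 8 reads each over the mimic libraries and 3 to 8 over the mimics-NC libraries.

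GSTK1, the kappa-class enzyme of mitochondria and peroxisomes, also rose. It had 8.25, 8.73 and 7.69 RPKM in the mimic libraries and 6.77, 6.69 and 6.55 RPKM in the mimics-NC libraries. The mimics-NC libraries were tightly grouped, and each mimic library was above all of them. The log2 fold change was 0.28 with a standard error of 0.05 (limma, adjusted p = 0.0104). GSTK1 lies on chromosome 7 (143244093 to 143270854, plus strand, GRCh38), and none of its 50-base windows occurs in another of the GST, MGST, SULT, UGT and SLX1 genes compared.

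The mu class did not move past the threshold in any of its 3 tested genes, GSTM2, GSTM3 and GSTM4. These enzymes detoxify electrophiles much as the alpha class does, and their genes sit together on chromosome 1 (109656081 to 109775428, GRCh38). GSTM3, the most abundant of them, had 8.69, 8.68 and 8.15 RPKM in the mimic libraries and 9.93, 8.52 and 9.55 RPKM in the mimics-NC libraries. The groups overlapped, since mimics-NC replicate 2 was lower than 2 of the mimic libraries. Its log2 fold change was -0.12, with a 95% confidence interval of -0.27 to 0.02 (limma, adjusted p = 0.198).

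GSTM4 averaged 3.16 ± 0.109 RPKM with the mimics and 3.04 ± 0.192 RPKM with mimics-NC (SD, n = 3 each), with a log2 interval of -0.09 to 0.18. GSTM2 averaged 1.38 ± 0.0602 RPKM with the mimics and 1.32 ± 0.0341 RPKM with mimics-NC (SD, n = 3 each), with an interval of -0.11 to 0.20. For both genes the groups overlapped. GSTM1 had 0.102, 0.0622 and 0.151 RPKM in the mimic libraries and 0.198, 0.128 and 0.167 RPKM in the mimics-NC libraries; 49.7% of its 50-base windows occur in other genes, most often GSTM2, and the value cannot be assigned to GSTM1 with certainty. GSTM5 had 4 reads in the mimic libraries and 19 reads in the mimics-NC libraries.

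GSTP1, the pi-class enzyme that is scarce in normal hepatocytes and abundant in many tumours, was the highest of all members. It had 80.0, 86.8 and 81.0 RPKM in the mimic libraries and 97.2, 76.0 and 72.0 RPKM in the mimics-NC libraries. The mimic libraries lay inside the wider range of the mimics-NC libraries. The log2 fold change was 0.03 with an interval of -0.23 to 0.28 (limma, adjusted p = 0.881). GSTO1, the omega-class enzyme that reduces dehydroascorbate and thiols, had 12.2, 15.9 and 13.4 RPKM in the mimic libraries and 14.9, 13.5 and 12.7 RPKM in the mimics-NC libraries. The groups overlapped fully, and the interval was -0.22 to 0.25 (adjusted p = 0.951). For both genes the sign of the fold change turned when single libraries were left out.

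GSTZ1, which converts maleylacetoacetate in tyrosine breakdown, averaged 0.549 ± 0.0174 RPKM with the mimics and 0.472 ± 0.0152 RPKM with mimics-NC (SD, n = 3 each), below the level for the main test. Its groups did not overlap, and it did not pass the test at 0.1 RPKM or more (limma, adjusted p = 0.381). GSTO2 had 32 reads in the mimic libraries and 12 in the mimics-NC libraries. GSTT2B of the theta class had 0 reads in the mimic libraries and 3 reads in the mimics-NC libraries. If every base of the gene can be counted, 0 reads allow up to 0.0219 RPKM over the 3 mimic libraries together. Since 90.9% of its windows are shared with GSTT2, the true level could be higher. Summed over the 21 GST genes, the level was 145, 157 and 143 RPKM in the mimic libraries and 159, 133 and 129 RPKM in the mimics-NC libraries. The sums overlapped between the groups, and GSTP1 made up more of them than all other GST genes together.

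**Figure D2:**
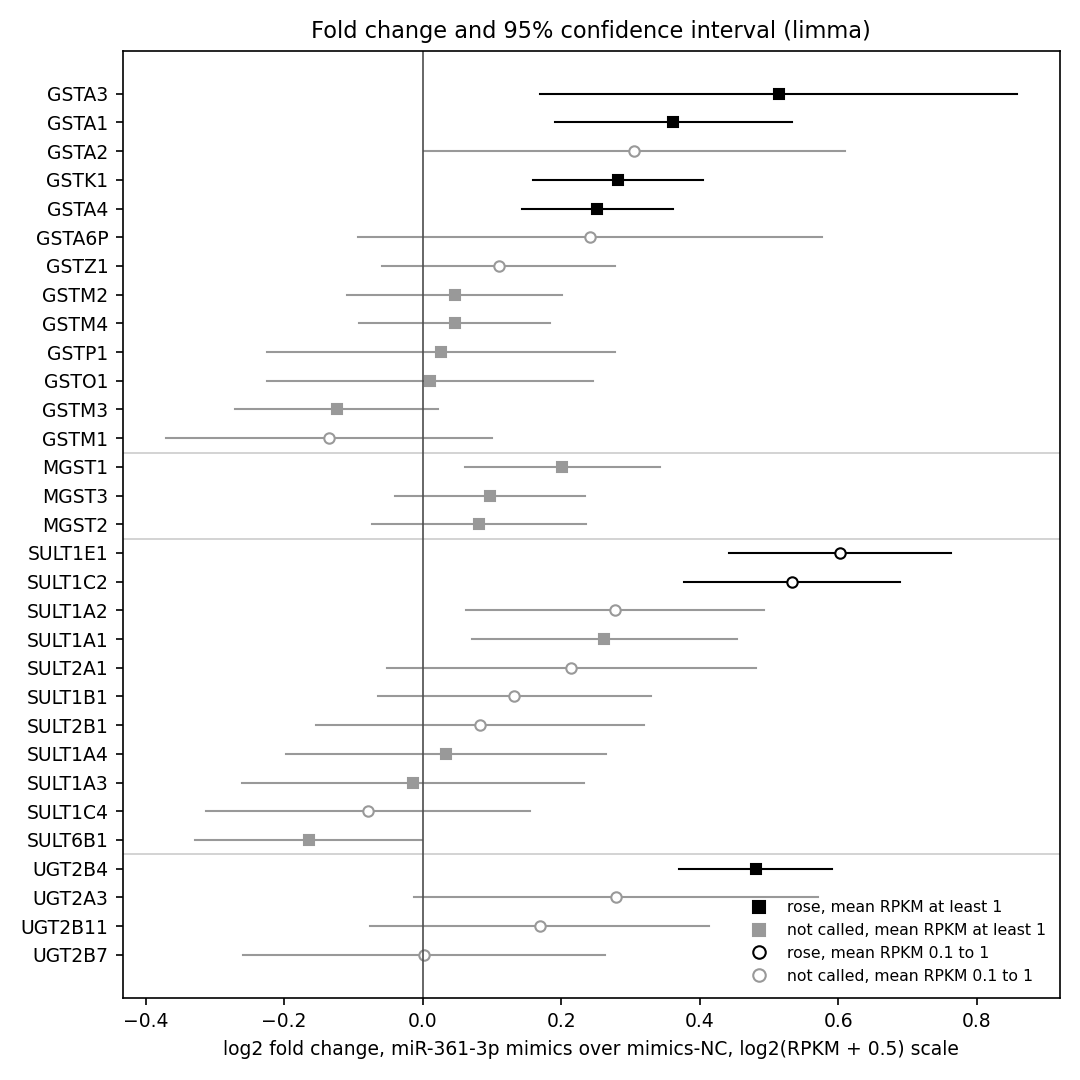
Log2 fold change of miR-361-3p mimics over mimics-NC on the log2(RPKM + 0.5) scale for the 31 members with a mean of at least 0.1 RPKM, ordered within each family, with 95% confidence intervals from limma. Black marks passed an adjusted p of 0.05 (squares in the test at 1 RPKM or more, circles in the test at 0.1 RPKM or more), and no mark to the left of 0 did.

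The 3 microsomal enzymes did not pass the threshold. MGST1, an abundant liver enzyme of the endoplasmic reticulum and outer mitochondrial membrane that also reduces lipid peroxides, came nearest. It had 11.4, 13.1 and 11.8 RPKM in the mimic libraries and 10.6, 9.91 and 10.8 RPKM in the mimics-NC libraries. All mimic libraries were above all mimics-NC libraries. The log2 fold change was 0.20 with an interval of 0.06 to 0.34 (limma, adjusted p = 0.0524). MGST2 and MGST3, which can also make leukotriene conjugates, averaged 3.8 ± 0.236 RPKM and 2.39 ± 0.0837 RPKM with the mimics, against 3.56 ± 0.239 RPKM and 2.21 ± 0.107 RPKM with mimics-NC (SD, n = 3 each), with overlap between the groups. Their intervals were -0.07 to 0.24 for MGST2 and -0.04 to 0.23 for MGST3. Exons of MGST2 share 252 bases with MAML3 on the opposite strand. Summed over the family, the level was 17.8, 19.3 and 17.7 RPKM in the mimic libraries and 16.2, 15.8 and 16.6 RPKM in the mimics-NC libraries, without overlap.

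Among the sulfotransferases, 4 of 12 genes reached the level for the main test and none of the 4 passed it. SULT1A1, the main phenol sulfotransferase of liver, had 2.36, 2.37 and 2.31 RPKM in the mimic libraries and 2.11, 1.90 and 1.64 RPKM in the mimics-NC libraries. The mimic libraries agreed closely, the mimics-NC libraries were spread, and the groups did not overlap. The log2 fold change was 0.26 with an interval of 0.07 to 0.45 (limma, adjusted p = 0.0598), and of the 6 fits that each left out 1 library it passed the threshold in 1, without mimics-NC replicate 1 (adjusted p = 0.0343). SULT6B1 had 4.85, 4.40 and 5.05 RPKM in the mimic libraries and 5.81, 5.39 and 5.01 RPKM in the mimics-NC libraries. By RPKM it was the most abundant sulfotransferase, with 1804 reads over a listed length of 1325 bases. SULT1A1 had more reads, 4985, over 8909 bases. SULT6B1 had the lowest log2 fold change of the 17, -0.16 with an interval of -0.33 to -0.000217 (limma, adjusted p = 0.139). Its exons share 81 bases with CEBPZOS on the opposite strand.

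SULT1A3 and SULT1A4, near-identical genes for the dopamine sulfotransferase, cannot be separated by these reads. They share 81.4% and 97.3% of their 50-base windows with other genes, mostly with each other, and each lies inside a readthrough gene (SLX1A-SULT1A3 and SLX1B-SULT1A4). SULT1A3 averaged 1.69 ± 0.222 RPKM with the mimics and 1.71 ± 0.214 RPKM with mimics-NC, and SULT1A4 averaged 2.17 ± 0.145 RPKM with the mimics and 2.12 ± 0.322 RPKM with mimics-NC (SD, n = 3 each). Their intervals were -0.26 to 0.23 and -0.20 to 0.26, and the groups overlapped for both.

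The remaining sulfotransferases averaged under 1 RPKM, the enzymes for estrogen (SULT1E1) and for dehydroepiandrosterone (SULT2A1) among them. With the level for testing lowered to a mean of 0.1 RPKM, which adds 14 members and makes 31 of 20975 genes tested, 6 members rose and 0 fell. Without mimic replicate 1, mimics-NC replicate 2 or mimics-NC replicate 3 the count was 3, and GSTA1 kept its call at this level in 1 of the 6 fits that left out 1 library. The background at that level was 5.95% of all genes that rose, 5.32% that fell and 11.3% called in either direction. The groups did not overlap in 13 of the 31, beside 32.4% of all genes tested. The log2 fold change was positive in 26 of the 31, beside 52.8% of all genes tested. The 6 were GSTA1, GSTA4, GSTK1, UGT2B4, SULT1C2 and SULT1E1, while GSTA3 lost its call (adjusted p = 0.0764).

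SULT1E1, the estrogen sulfotransferase, had 1.25, 1.29 and 1.38 RPKM in the mimic libraries and 0.72, 0.655 and 0.693 RPKM in the mimics-NC libraries. The lowest mimic library was well above the highest mimics-NC library. The mean was 1.90-fold higher with the mimics, and the log2 fold change was 0.60 with a standard error of 0.07 (limma at 0.1 RPKM or more, adjusted p = 0.00315). It rested on 376 reads in the mimic libraries and 226 reads in the mimics-NC libraries. Its mean over all libraries, 0.998 RPKM, was just under the level for the main test, and GSTM2 at 1.35 RPKM was the lowest member above it.

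SULT1C2, a sulfotransferase best known from fetal tissues, had 1.13, 1.21 and 1.21 RPKM in the mimic libraries and 0.638, 0.679 and 0.67 RPKM in the mimics-NC libraries. The replicates lay close together in both groups, with a wide gap between them. The mean was 1.79-fold higher with the mimics, and the log2 fold change was 0.53 with a standard error of 0.07 (limma at 0.1 RPKM or more, adjusted p = 0.00455). It rested on 1241 reads in the mimic libraries and 796 in the mimics-NC libraries. The added 0.5 RPKM understates the fold of genes this low. SULT1C2 lies on chromosome 2 (108288639 to 108309915, plus strand, GRCh38). No 50-base window of SULT1C2 or SULT1E1 occurs in another of the GST, MGST, SULT, UGT and SLX1 genes compared.

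The other low sulfotransferases did not pass the test. SULT1A2, a close relative of SULT1A1, had 0.992, 1.13 and 1.10 RPKM in the mimic libraries and 0.823, 0.904 and 0.674 RPKM in the mimics-NC libraries. The groups did not overlap, and the adjusted p was 0.104 (limma at 0.1 RPKM or more). Of the 50-base windows of SULT1A2, 22.05% occur in other genes compared, most of them in SULT1A1. The share was 8.34% for SULT1A1, so reads could be shared between the 2 genes. SULT2A1, which sulfonates dehydroepiandrosterone and bile acids, averaged 0.766 ± 0.124 RPKM with the mimics and 0.592 ± 0.113 RPKM with mimics-NC, and SULT2B1, which acts on cholesterol and pregnenolone, averaged 0.5 ± 0.105 RPKM with the mimics and 0.441 ± 0.0122 RPKM with mimics-NC (SD, n = 3 each). Both had overlapping groups. SULT1B1, which acts on thyroid hormones, had 134 reads in the mimic libraries and 96 in the mimics-NC libraries, and SULT1C4 had 34 reads in the mimic libraries and 53 in the mimics-NC libraries. SULT4A1, a brain-expressed member, had 2 reads in each group.

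UGT2B4, the hepatic enzyme that glucuronidates bile acids such as hyodeoxycholic acid, was the single UGT2 gene over 1 RPKM and had the smallest adjusted p of all members. It had 5.30, 5.19 and 4.98 RPKM in the mimic libraries and 3.68, 3.49 and 3.49 RPKM in the mimics-NC libraries. Both sets of replicates were tight and lay far apart. The means were 5.16 ± 0.163 RPKM with the mimics and 3.55 ± 0.106 RPKM with mimics-NC (SD, n = 3 each), a 1.45-fold difference, and the log2 fold change was 0.48 with a standard error of 0.05 (limma, adjusted p = 0.000948). The UGT2B genes resemble each other, but 2.42% of the 50-base windows of UGT2B4 occur in the other GST, MGST, SULT, UGT and SLX1 genes compared.

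The other UGT2 genes were low. UGT2B7, which handles morphine and many other drugs, had 0.619, 0.514 and 0.515 RPKM in the mimic libraries and 0.577, 0.66 and 0.418 RPKM in the mimics-NC libraries, a log2 fold change of 0.0019 with an interval of -0.26 to 0.26. The groups overlapped fully. UGT2A3 had 0.634, 0.656 and 0.409 RPKM in the mimic libraries and 0.341, 0.456 and 0.329 RPKM in the mimics-NC libraries, with overlap and an adjusted p of 0.206 (limma at 0.1 RPKM or more). UGT2B11 averaged 0.438 ± 0.0926 RPKM with the mimics and 0.332 ± 0.0424 RPKM with mimics-NC (SD, n = 3 each), also with overlap, and 36.4% of its windows occur in other genes. UGT2B10, UGT2B15 and UGT2B28, which act on amines and androgens, had 10 to 18 reads each over the mimic libraries and 14 to 30 over the mimics-NC libraries. UGT2A1 and UGT2A2, which share exons and are known from the nose, each had 12 reads over the mimic libraries, with 4 and 2 reads over the mimics-NC libraries.

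Of the members on chromosome 4, 11 form 1 cluster (68646630 to 69860152, GRCh38) that holds all 9 UGT2 genes with SULT1B1 and SULT1E1. UGT2B4 (69480165 to 69526014, minus strand) and SULT1E1 (69810780 to 69860152, minus strand) were the 2 of its 6 genes tested at 0.1 RPKM or more that rose. UGT2B7, UGT2A3, UGT2B11 and SULT1B1, in the same cluster, did not pass that test.

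**Figure D3:**
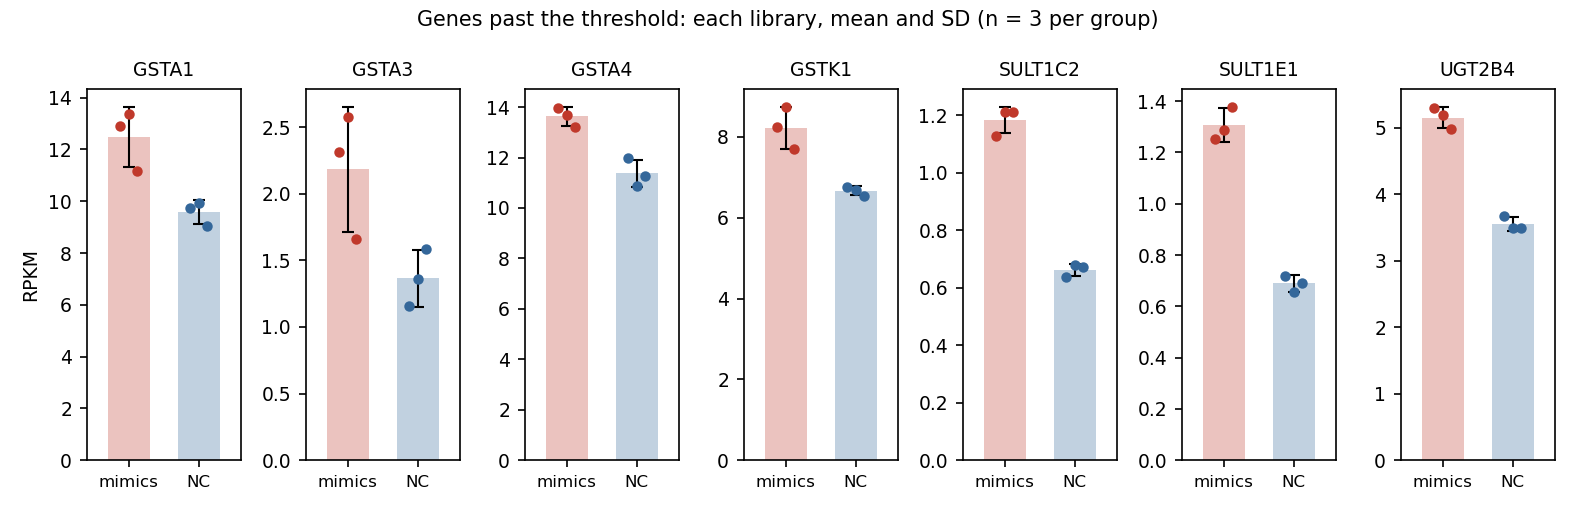
RPKM of the 7 members that rose in either test, each library as a point, bars at the group mean and error bars of 1 SD (n = 3 per group), with miR-361-3p mimics left of mimics-NC in each panel and each axis from 0. No mimic library overlaps a mimics-NC library in any panel, and the gap is narrowest for GSTA3, at 1.66 RPKM in the lowest mimic library and 1.58 RPKM in the highest mimics-NC library.

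UGT2B4, GSTA1, GSTA4 and GSTK1 kept an adjusted p under 0.05 in each of the 6 fits that left out 1 library, as did SULT1C2 and SULT1E1 at the lower level. The ranges were 0.0034 to 0.0064 for UGT2B4, 0.00768 to 0.049 for GSTA1, 0.011 to 0.0385 for GSTA4 and 0.0123 to 0.0396 for GSTK1. They were 0.0171 to 0.0255 for SULT1C2 and 0.0134 to 0.0192 for SULT1E1. MGST1 stayed over the threshold in all 6, at 0.0509 to 0.147. A model of the recovered whole reads (limma-voom) called 7 of the 17 as risen and 0 as fallen, against 15.7% of all genes risen, the 5 named above with MGST1 (adjusted p = 0.00376) and SULT1A1 (adjusted p = 0.0027).

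**Figure D4:**
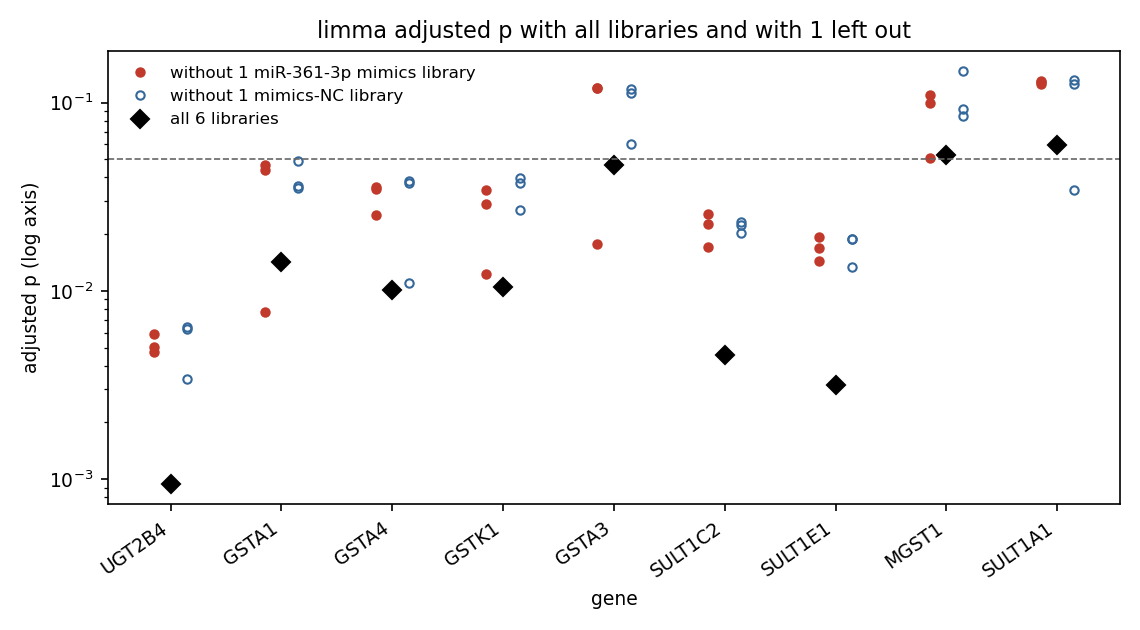
Adjusted p from limma, on a log axis, for 9 members with all 6 libraries (black diamonds), without 1 of the miR-361-3p mimics libraries (filled red) and without 1 of the mimics-NC libraries (open blue); SULT1C2 and SULT1E1 are from the test at 0.1 RPKM or more. Points of UGT2B4, GSTA1, GSTA4, GSTK1, SULT1C2 and SULT1E1 all lie under the dashed line at 0.05, while GSTA3 is under it with all libraries and in 1 of the 6 smaller fits.

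Promoter sequences (250 bases before to 50 after the start, RefSeq, GRCh38.p14) were found for 33 of the 45 members, with 36 starts among them, and UGT2B4, SULT1A1 and SULT1A2 were among those not matched. Many conjugation genes are known to carry an antioxidant response element, bound by NRF2 with a small MAF protein, whose core TGACNNNGC was searched on both strands. It was found in 9 of 36 member promoters, or 25.0%, beside 13.3% of 35116 promoters of all genes. The core of the xenobiotic response element bound by the aryl hydrocarbon receptor, GCGTG, was found in 8 of 36, or 22.2%, beside 36.5% of all promoters. The searches were separate, so matches may share bases, and GSTM5 held both. Among the members that rose, GSTA4 and SULT1C2 held TGACNNNGC, while GSTA1, GSTA3, GSTK1 and SULT1E1 did not hold it in these windows. The promoter of GSTA4, which rose and holds the core at -9, is set beside those of GSTP1, which holds it at -66 and did not pass the test, of SULT1C2, which holds it at -62 on the opposite strand, and of GSTA1, which rose and does not hold it. Capitals mark the core.
GSTA4 (chr6:52995235-52995534, minus strand): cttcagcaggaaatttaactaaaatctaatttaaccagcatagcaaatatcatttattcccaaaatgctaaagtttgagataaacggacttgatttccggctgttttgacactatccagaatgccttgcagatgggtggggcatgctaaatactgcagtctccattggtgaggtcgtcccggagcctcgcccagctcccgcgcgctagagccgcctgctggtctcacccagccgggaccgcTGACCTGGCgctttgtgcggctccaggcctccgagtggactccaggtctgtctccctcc
GSTP1 (chr11:67583562-67583861, plus strand): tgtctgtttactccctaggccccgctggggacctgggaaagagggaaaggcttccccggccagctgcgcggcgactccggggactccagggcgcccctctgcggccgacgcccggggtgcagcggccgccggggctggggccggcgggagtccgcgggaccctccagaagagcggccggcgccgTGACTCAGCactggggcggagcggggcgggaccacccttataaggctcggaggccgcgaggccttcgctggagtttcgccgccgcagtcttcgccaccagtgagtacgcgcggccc
SULT1C2 (chr2:108288645-108288944, plus strand): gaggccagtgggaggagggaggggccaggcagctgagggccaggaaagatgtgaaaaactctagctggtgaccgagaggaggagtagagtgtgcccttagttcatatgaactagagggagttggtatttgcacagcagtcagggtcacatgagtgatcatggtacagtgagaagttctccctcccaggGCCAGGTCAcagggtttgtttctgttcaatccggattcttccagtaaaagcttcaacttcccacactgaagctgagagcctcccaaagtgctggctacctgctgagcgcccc
GSTA1 (chr6:52803767-52804066, minus strand): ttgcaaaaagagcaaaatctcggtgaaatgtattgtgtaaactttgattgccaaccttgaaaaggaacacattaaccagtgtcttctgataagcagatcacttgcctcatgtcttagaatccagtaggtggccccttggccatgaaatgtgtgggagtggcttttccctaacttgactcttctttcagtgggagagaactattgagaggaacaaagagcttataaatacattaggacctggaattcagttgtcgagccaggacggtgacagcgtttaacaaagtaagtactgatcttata
The promoters of GSTA1 and GSTA2 were identical at 288 of 300 bases, or 96.0%, aligned without gaps. GSTA1 stood at 11.0 RPKM and GSTA2 at 0.717 RPKM over all libraries.

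The supply of each conjugating group, the exporters and the regulators were followed in 8 lists with 122 entries, of which 118 were found and 82 reached the level for the main test. Of these 82, 18 rose and 7 fell, and over all genes tested 11.7% rose and 9.85% fell; several of the shorter lists had shares near these. In the glutathione list, 8 of 15 rose and 1 fell, with a median log2 fold change of 0.19. CTH, which makes cysteine from cystathionine, averaged 12.2 ± 0.656 RPKM with the mimics and 6.74 ± 0.137 RPKM with mimics-NC (SD, n = 3 each), a log2 fold change of 0.82 (limma, adjusted p = 0.000248). SLC7A11, the cystine transporter, averaged 8.43 ± 0.81 RPKM with the mimics and 4.65 ± 0.0521 RPKM with mimics-NC, a log2 fold change of 0.79 (adjusted p = 0.000585). The 2 subunits of glutamate-cysteine ligase, GCLC and GCLM, rose by log2 fold changes of 0.52 and 0.31.

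For the donors of the other reactions fewer genes were tested. Of 10 tested genes for PAPS supply and turnover, 1 rose and 0 fell: PAPSS2, a PAPS synthase, at 4.73 ± 0.108 RPKM with the mimics and 3.52 ± 0.557 RPKM with mimics-NC (SD, n = 3 each; limma, adjusted p = 0.0321). PAPSS1, the more abundant synthase, averaged 10.6 ± 0.0365 RPKM with the mimics and 10.9 ± 0.309 RPKM with mimics-NC and was not called. The PAPSS2 call was kept without mimics-NC replicate 1 or 2 and lost in the other 4 fits that left out 1 library, with adjusted p up to 0.0853. Of 7 tested genes for UDP-glucuronic acid, UGDH, which makes it, and SLC35D2, a nucleotide sugar transporter, rose by log2 fold changes of 0.14 and 0.19. UXS1, which turns UDP-glucuronic acid into UDP-xylose, fell by 0.24 on the log2 scale (adjusted p = 0.0123).

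Export, deconjugation and related enzymes were mixed. ABCC2, the canalicular pump for glutathione, glucuronide and sulfate conjugates, averaged 85.5 ± 0.7 RPKM with the mimics and 69.1 ± 2.49 RPKM with mimics-NC (SD, n = 3 each), a log2 fold change of 0.31 (limma, adjusted p = 0.0018). It was the single gene that rose of the 9 export genes tested. Of 8 deconjugating and mercapturic acid enzymes, the sulfatase ARSB rose by 0.35, while STS, the steroid sulfatase, and ANPEP, an aminopeptidase, fell by 0.18 and 0.14 on the log2 scale. Of 9 tested relatives outside the naming pattern, GDAP1, a GST-like mitochondrial protein, rose by 0.20, and TPST1, a tyrosylprotein sulfotransferase, fell by 0.41 on the log2 scale. Of 8 other conjugating enzymes, the histamine methyltransferase HNMT rose by 0.25, and the arsenite methyltransferase AS3MT, the most abundant of the others, had a log2 fold change of -0.07 and was not called.

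Of 16 tested transcription factors that act on conjugation genes, 3 rose and 1 fell. NFE2L1, a relative of NRF2, averaged 122 ± 1.44 RPKM with the mimics and 93.6 ± 2.84 RPKM with mimics-NC (SD, n = 3 each), a log2 fold change of 0.38 (limma, adjusted p = 0.00068). AHR, the aryl hydrocarbon receptor, and NR1H4, the bile acid receptor FXR, rose by 0.26 and 0.17, and MAFF, a small MAF protein, fell by 0.17 on the log2 scale. NFE2L2, which encodes NRF2 and was chosen for mention after its values were seen, averaged 37.2 ± 0.576 RPKM with the mimics and 37.0 ± 0.631 RPKM with mimics-NC and had a log2 fold change of 0.0062 (adjusted p = 0.907).

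Of the 25 companion genes called, 13 kept their call in all 6 fits that left out 1 library, among them CTH, SLC7A11, GCLC, GCLM, SLC3A2, UXS1, TPST1, HNMT, ARSB, ABCC2 and NFE2L1. The other 12 lost it in at least 1. STS and ANPEP lost it in all 6, with adjusted p of 0.0702 to 0.14 for STS and 0.059 to 0.0939 for ANPEP. UGDH, MAFF and NR1H4 lost it in 5, with adjusted p up to 0.0776, 0.133 and 0.0903. AHR and GDAP1 lost it without mimic replicate 3 or mimics-NC replicate 2, with limma adjusted p up to 0.0597 and 0.0511. SLC35D2 lost it without mimic replicate 3 or mimics-NC replicate 3, with limma adjusted p up to 0.054.

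**Figure D5:**
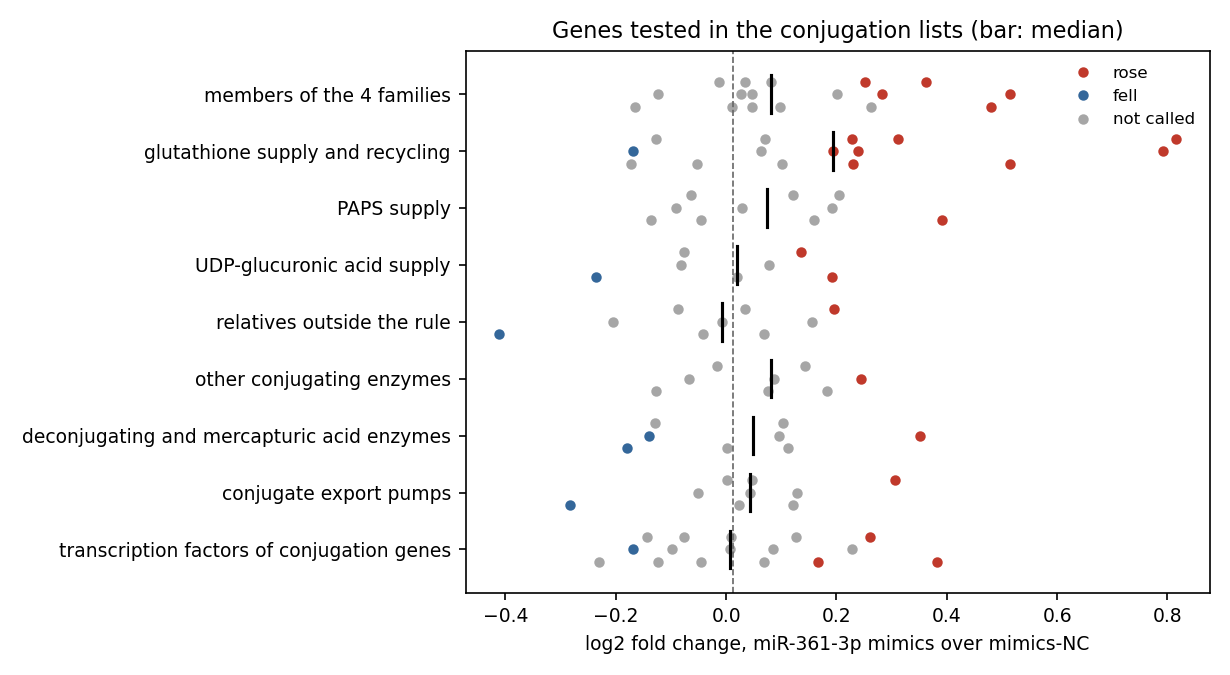
Log2 fold change of miR-361-3p mimics over mimics-NC for each gene tested at 1 RPKM or more, in the members of the 4 families and in the 8 companion lists, with red points risen, blue points fallen and grey points not called, a black bar at each median and the dashed line at the median of all genes tested. The members have a median of 0.08 and no fallen gene, and the glutathione list has the highest median, 0.19.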

How the data were processed

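The authors deposited 1 table of RPKM for 33707 genes in 6 libraries, with each gene's exon positions on GRCh38 and its length in bases, a value of another kind. The submitters' processing notes name Trimmomatic (0.36), Subread (1.5.1) with featureCounts, and edgeR (3.12.1). The aligner, annotation and strandedness of counting were not given in the sources used here. Whole reads were recovered from RPKM times length; 100% of the values came out whole to within 0.01.

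Genes averaging 1 RPKM or more were fitted on log2(RPKM + 0.5) with limma 3.58.1 in R 4.3.3. The settings were empirical Bayes with an intensity trend, two-sided, no block, and Benjamini-Hochberg over all genes tested. The procedure was also run on simulated counts, drawn independently with the same dispersion for all genes. Those counts lack the excess of even numbers and the reads shared by overlapping genes, so the run does not show its error rate in these libraries. Fits at 0.1 RPKM, other pseudocounts, scalings, limma-voom on reads and fits without each library were alternatives; the voom and leave-one-out fits at 0.1 RPKM were chosen after seeing the data. A gene of 2 kilobases at 1 RPKM rests on 70.0 to 106 reads per library, and limits for counts of 0 (3 reads) cover counting error only. All tested members are named, with up to 4 called genes of each companion list, except that some items are not reported here. Members and lists were chosen with earlier results of these data known. Sequences are from RefSeq (GRCh38.p14), and 3′ UTRs and shared windows of 50 bases are from GENCODE transcripts. Windows were compared only with other genes whose names begin with GST, MGST, SULT, UGT or SLX1.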

Additional observations from a re-analysis of the deposited data

How the results depend on the processing

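Of the member and gene-list values recomputed, the calls of UGT2B4, GSTA4 and GSTK1 held under each alternative to the test at 1 RPKM or more, and GSTA1 lost its call with no filter on low values (adjusted p = 0.0527). GSTA3 lost it after median-of-ratios scaling (0.0507), after quantile normalization (0.0511), with no filter (0.149) and with the replicate block (0.0986), while MGST1 gained one after quantile normalization (0.0426). The count over all genes was 2835, and 1716 with no filter, 3821 with voom and 1780 to 2150 without single libraries. The GST count of 4 was 2 with no filter. The MGST count of 0 was 1 after quantile normalization and 1 with voom. The SULT count of 0 was 2 at 0.1 RPKM, 2 with no filter, 1 with voom and 0 to 1 without single libraries. The member count of 6 at 0.1 RPKM was 9 with voom and 3 to 7 without single libraries, with 3 without mimic replicate 1, mimics-NC replicate 2 or mimics-NC replicate 3; GSTA1, GSTA4 and GSTK1 lost their calls there in 5, 4 and 3 of these 6 fits. The cause of these shifts was not tested.

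Signs turned for uncalled members near 0. Without single libraries the log2 fold change ranged from -0.0903 to 0.0929 for GSTO1, from -0.058 to 0.157 for GSTP1, from -0.0543 to 0.123 for SULT1A4, from -0.0966 to 0.0508 for SULT1A3 and from -0.0926 to 0.076 for UGT2B7. GSTO1 was at -0.000337 after median-of-ratios scaling and UGT2B7 at -0.0056 with voom.

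Correlations of deviations from group means were -0.05, -0.02 and 0.02 for libraries of the same replicate number. For different numbers they ran from -0.11 to 0.12. Deviations sum to 0 within a group of 3, so the check cannot settle whether the libraries were paired. With the replicate block 1976 genes and 4 members were called. With no filter, 0 of the 14 members under 0.1 RPKM were called by limma and 0 had an unadjusted p under 0.05 (smallest adjusted p = 0.4); their few reads limit what can be detected.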

Other observations

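The recovered reads show how overlapping genes were counted. SLX1A-SULT1A3 had 244, 347 and 368 reads in the mimic libraries and 319, 450 and 383 reads in the mimics-NC libraries. SLX1A and SULT1A3 together had 250, 354 and 372 reads in the mimic libraries and 323, 456 and 387 reads in the mimics-NC libraries. The same held for SLX1B-SULT1A4, with 242, 328 and 305 reads in the mimic libraries and 306, 421 and 376 reads in the mimics-NC libraries, beside sums for SLX1B and SULT1A4 of 247, 328 and 314 reads in the mimic libraries and 308, 424 and 387 reads in the mimics-NC libraries. The readthrough genes thus held nearly the sum of the reads of the genes they span, and UGT2A1 and UGT2A2, which share exons, had equal reads in all 3 mimic libraries (8, 0 and 4).

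Even read numbers were in excess. Among genes with 1 to 30 reads, 68.3% to 70.0% had an even number in each library. Genes with 2 reads numbered 2726 to 2886 in the mimic libraries and 2752 to 2857 in the mimics-NC libraries. Genes with 1 read numbered 902 to 951 in the mimic libraries and 942 to 1019 in the mimics-NC libraries. Whether mates of a pair were counted apart was not tested. The read numbers given for low members are as recovered and were not corrected for this excess.

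Among the members under the level for the main test, the groups also lay apart for GSTO2, at 0.023, 0.0225 and 0.0316 RPKM in the mimic libraries and 0.0143, 0.0038 and 0.0085 RPKM in the mimics-NC libraries, and for SULT1B1, at 0.151, 0.152 and 0.137 RPKM in the mimic libraries and 0.0709, 0.103 and 0.0971 RPKM in the mimics-NC libraries. SULT1B1 did not pass at 0.1 RPKM or more (limma, adjusted p = 0.369), and GSTO2 was not tested.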
